A study of Mus musculus with 6 samples.

Results

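The RNA of 32 genes that carry cells through mitosis was compared between 2 sorts of cells from injured mouse kidneys. The genes were taken by symbol from the deposited table, where each matched a single row of 31815 gene rows, and all 32 passed the filter on low counts that left 15462 genes. Mitosis begins when the kinase Cdk1, bound to its cyclins, drives chromosome condensation and spindle assembly. A checkpoint then holds the cell until every kinetochore is attached, the anaphase-promoting complex degrades the cyclins, and the central spindle guides cytokinesis. Most of these transcripts are made only late in the cell cycle, so that in a tissue their level follows the share of cycling cells. After kidney injury, interstitial fibroblasts and pericytes are known to proliferate as they turn into myofibroblasts.

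All cells came from male mice of 9 to 12 weeks with the genotype Axin2CreERT2/+:R26RtdT/+:Acta2-GFP, whose kidneys had both been made ischemic and then reperfused. In these mice a tamoxifen-inducible Cre from the Axin2 gene, a Wnt feedback target, switches on the red reporter tdT for good. A green reporter follows Acta2, the smooth muscle actin gene of myofibroblasts, which smooth muscle cells and some pericytes also use. Tamoxifen was given on days 2 and 4, and on day 6 tdT+GFP+ and tdT-GFP+ cells were sorted, 3 libraries of each, from kidneys numbered 1, 2 and 3. The tdT label thus records earlier Axin2 activity and not Axin2 activity at the sort. Positive log2 fold changes mean higher levels in tdT+GFP+ cells.

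The libraries held 25697348 to 33029933 counts. Levels are given as CPM, counts relative to the library size after scaling by the trimmed mean of M-values (TMM). The fewest counts of any mitosis gene in a library were 148, for Ttk. The 10 fibroblast and myofibroblast markers were abundant in both sorts. They summed to 57217 to 64675 CPM in tdT+GFP+ and 44058 to 65904 CPM in tdT-GFP+ libraries, with 9 positive values and 1 negative. Acta2 had 1577, 1416 and 1747 CPM in tdT+GFP+ kidneys 1, 2 and 3 and 1588, 944 and 943 CPM in the tdT-GFP+ cells. Its groups overlapped (log2 fold change 0.45, interval -0.10 to 1.0, edgeR adjusted p = 0.499). Axin2 itself had 52.8, 29.7 and 64.2 CPM in tdT+GFP+ kidneys 1, 2 and 3 and 43.0, 64.2 and 27.3 CPM in the tdT-GFP+ cells, so its RNA on day 6 did not separate the sorts. Markers of other cell types were present too. The 10 endothelial markers summed to 589 to 1101 CPM in tdT+GFP+ and 1125 to 2620 CPM in tdT-GFP+ libraries, and all 10 had negative log2 fold changes. The 10 macrophage and monocyte markers summed to 445 to 1644 CPM and 321 to 977 CPM, and all 10 had positive values. The sums were 528 to 597 against 330 to 1253 CPM for the 8 proximal tubule markers, with 4 positive and 4 negative values. A single gene, Aqp1, weighed heavily in these sums, with 216, 56.7 and 443 against 92.8, 1070 and 174 CPM in kidneys 1, 2 and 3. Another of the 8, Slc34a1, had 96.2, 181 and 46.1 against 65.6, 61.9 and 144 CPM. The 8 markers of other nephron segments summed to 278 to 776 against 617 to 1382 CPM, and all 8 had negative values. The 8 mural cell markers, which GFP+ smooth muscle and pericytes would bring, summed to 1094 to 1314 against 1311 to 2140 CPM, with 7 of 8 values negative. Erythroid markers summed to 0.763 to 18.7 against 14.3 to 20.4 CPM and T, B and NK cell markers to at most 3.11 CPM. No tested marker was at 0 in all libraries. The part of these cells in the mitosis transcripts was not tested. In bulk RNA, fewer cells of a type and less RNA per cell cannot be told apart.

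The promoters of these genes are shown first because they carry a shared feature that played no part in choosing the genes. The cell cycle genes homology region (CHR) is an element bound by the DREAM and B-MYB-MuvB complexes, which repress mitotic genes in resting cells and activate them before mitosis. The CCAAT box is bound by NF-Y. RefSeq promoter windows (GRCm38.p6, 250 bases before to 50 bases after the start site) were found for 28 of the 32 genes, all but Ccna2, Aurkb, Tpx2 and Kif20a. A CHR, written TTTGAA or TTCGAA and searched on both strands, stood in the windows of 23 of 28 genes (82.1%). It stood in those of 5854 of 27025 genes in the whole table (21.7%). A CCAAT box on either strand stood in 23 of 28 (82.1%), against 41.1% of all genes. Both stood together in 21 of 28 (75%), against 8.61%. Of the further mitosis genes described last, 50 had a window. A CHR stood in 34 of these 50 (68.0%), a CCAAT box in 33 (66.0%) and both in 24 (48.0%). The feature was thus not particular to the genes chosen here. Of all windows in the table, 19.2% held a CHR and 37.4% a CCAAT box. In the windows of Birc5, Nuf2 and Nusap1 neither was found, which says only that these letters are not in these bases. Matches overlapped each other at 2 places, in Ube2c and Cdca8.

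The genes with both elements and the highest mean CPM, Mki67, Top2a, Prc1 and Cenpf, are printed from 250 bases before the start site through the first 30 bases after it, 5′ to 3′ on the strand of the gene. Capitals mark CHR matches (TTTGAA, its reverse complement TTCAAA, or TTCGAA) and CCAAT boxes (CCAAT or ATTGG).
Mki67 (chr7:135716350-135716629, minus strand): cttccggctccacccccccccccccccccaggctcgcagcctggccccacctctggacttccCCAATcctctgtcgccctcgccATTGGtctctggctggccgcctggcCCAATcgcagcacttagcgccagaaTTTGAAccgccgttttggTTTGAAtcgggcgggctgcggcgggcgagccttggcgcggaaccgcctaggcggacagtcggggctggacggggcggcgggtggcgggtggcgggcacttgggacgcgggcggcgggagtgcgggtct
Top2a (chr11:99024160-99024439, minus strand): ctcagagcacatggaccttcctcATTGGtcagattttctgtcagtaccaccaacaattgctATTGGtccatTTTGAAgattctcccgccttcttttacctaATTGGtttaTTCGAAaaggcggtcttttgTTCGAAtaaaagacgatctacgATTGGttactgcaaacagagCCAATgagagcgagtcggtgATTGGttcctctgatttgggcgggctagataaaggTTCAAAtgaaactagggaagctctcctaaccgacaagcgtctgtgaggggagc
Prc1 (chr7:80294201-80294480, plus strand): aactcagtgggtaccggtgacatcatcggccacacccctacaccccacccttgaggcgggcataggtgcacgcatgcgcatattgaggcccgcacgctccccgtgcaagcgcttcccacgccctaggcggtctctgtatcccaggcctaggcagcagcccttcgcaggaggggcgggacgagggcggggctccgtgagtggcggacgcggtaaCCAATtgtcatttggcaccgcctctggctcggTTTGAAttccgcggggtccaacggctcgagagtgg
Cenpf (chr1:189688057-189688336, minus strand): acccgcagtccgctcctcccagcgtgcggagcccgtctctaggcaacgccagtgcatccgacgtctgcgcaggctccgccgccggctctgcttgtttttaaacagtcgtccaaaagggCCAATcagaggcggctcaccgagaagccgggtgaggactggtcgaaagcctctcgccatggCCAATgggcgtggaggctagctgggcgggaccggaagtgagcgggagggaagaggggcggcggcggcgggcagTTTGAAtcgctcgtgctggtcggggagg
With positions counted from the start site, the CHR of Prc1 begins at -5 and its CCAAT box at -37. In Cenpf the CHR begins at position 3, with CCAAT boxes at -71 and -132. Top2a holds 4 CHR and 6 CCAAT matches, while in Mki67 the 2 CHR and 3 CCAAT matches begin between positions -188 and -98.

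In most promoters the CHR lay close to the start site and the CCAAT boxes stood upstream of it. With the first window of each gene, 22 of 28 genes (78.6%) had a CHR between 30 bases before and 50 bases after the start site, against 4.10% of all genes. A CCAAT box within 120 bases upstream was found in 22 of 28 (78.6%), against 22.1%. These narrower limits were chosen after the positions had been seen, so the shares describe the map and test nothing. Of the 26 DNA replication genes with a window, 6 (23.1%) held a CHR, near the share of all genes, and 18 (69.2%) a CCAAT box. A match is a description of the sequence and not evidence of binding in these cells.

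**Figure D1:**
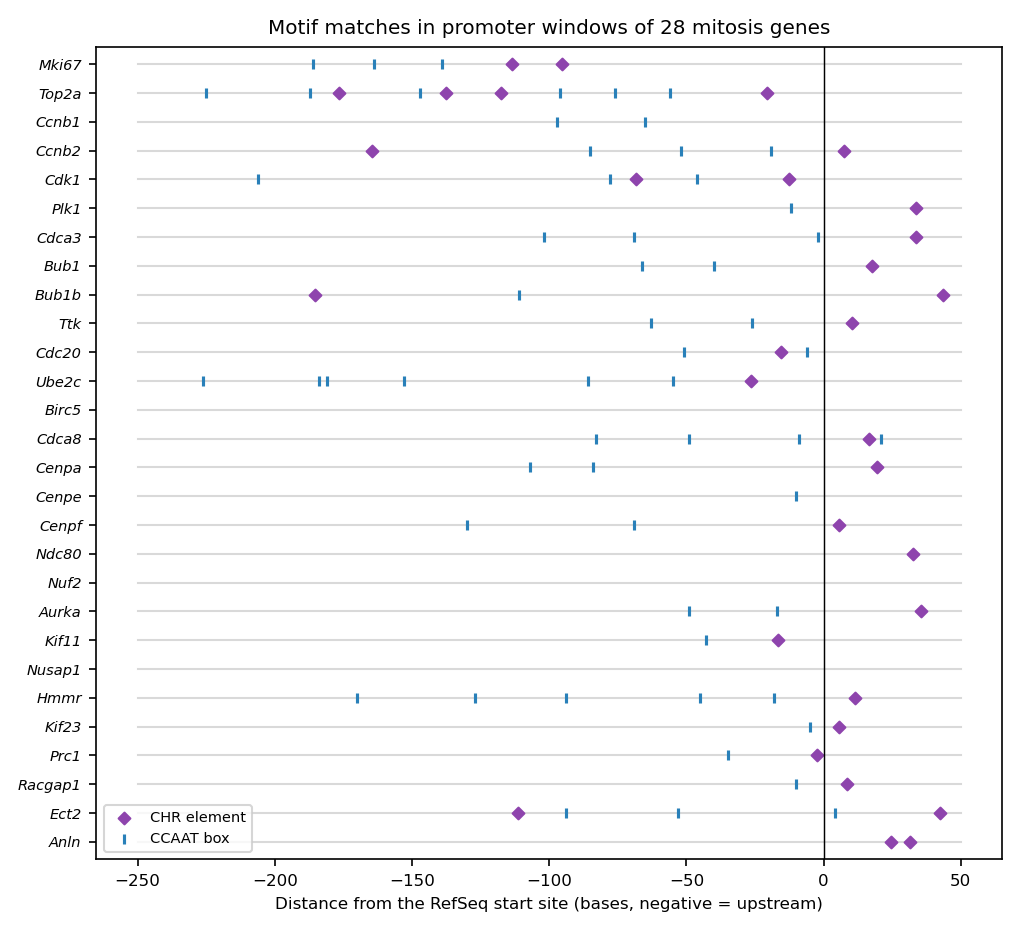
Positions of CHR elements (diamonds) and CCAAT boxes (bars) in the RefSeq promoter windows of 28 mitosis genes, as distance in bases from the start site, the first window of each gene being used. CHR matches gather around the start site in 22 of the 28 genes, with CCAAT boxes mostly upstream.

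Levels of the mitosis genes differed far more between genes than between libraries, where the median SD of a gene over the 6 libraries was 0.12 on the log2 scale. To compare genes with each other, CPM were divided by the summed exon length in kilobases (GENCODE M21). On this per-length scale the order was led by Mki67 (14.9 CPM per kb), the anaphase-promoting complex activator Cdc20 (13.6) and the cyclin gene Ccnb2 (13.03). Top2a (10.6), Plk1 (9.95) and Ccna2 (8.93) followed, and Ndc80 (1.24) and Ttk (1.22) were last, a 12.3-fold range from first to last. Neighbours in this order mostly could not be separated. In 29 of 31 neighbouring pairs the ranges over the 6 libraries overlapped, and the exceptions were the steps from Ccnb2 to Top2a and from Cenpf (2.29) to Ndc80. The annotated exons include rare isoforms, which lowers the per-length level of genes with many of them. Top2a has 9013 exonic bases but a longest transcript of 5221 bases, and Prc1 has 8225 and 3645. For Mki67 both lengths are 10061 bases and for Ccnb2 both are 1531. By the longest transcript Top2a would stand above Mki67 and Ccnb2. The lead of Mki67 and the step from Ccnb2 to Top2a thus hold only for the summed exon length.

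**Figure D2:**
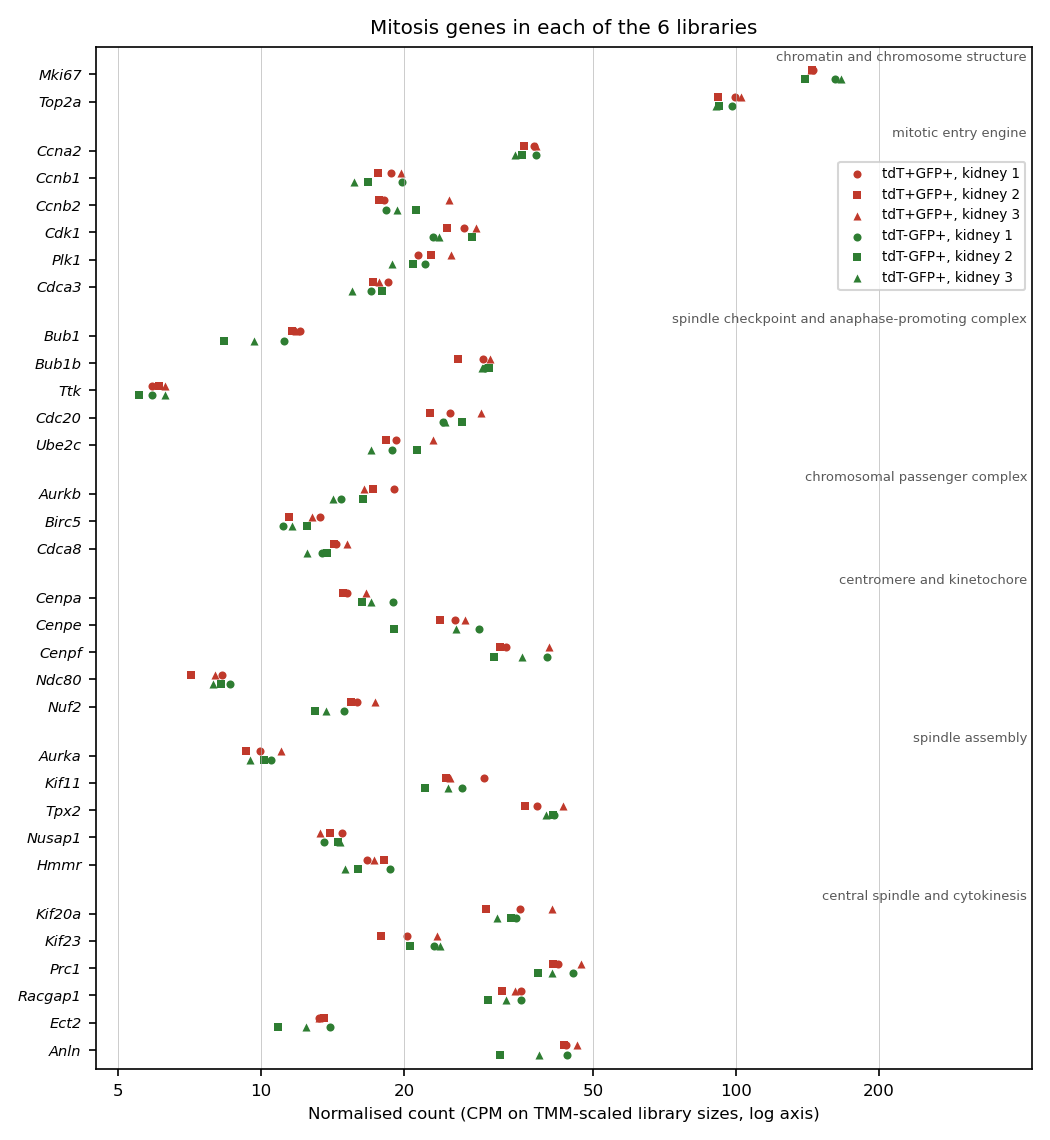
Normalised counts of the 32 mitosis genes on a log axis, with tdT+GFP+ libraries in red, tdT-GFP+ libraries in green and a symbol for each kidney. For most genes the 2 colours overlap, and the spread within a gene is small beside the spread between genes.

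The question of the comparison is whether GFP+ cells with the tdT label differed in mitotic transcripts from the GFP+ cells without the label. The absence of the label does not show that Axin2 was inactive in a cell. The mitosis genes stood at nearly equal levels in the 2 sorts. Summed over the 32 genes, tdT+GFP+ libraries 1, 2 and 3 had 921, 873 and 969 CPM and tdT-GFP+ libraries had 945, 863 and 893 CPM. The means were 921 ± 48.2 and 900.3 ± 41.4 CPM (SD, n = 3 each), a ratio of 1.02, and the groups overlapped. The log2 fold change was above 0 for 24 of the 32 genes and below 0 for 8, with a median of 0.065 and a range of -0.17 to 0.28. The median over all 15462 genes was -0.00039, with 7718 positive and 7744 negative values.

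No mitosis gene passed the edgeR quasi-likelihood test with Benjamini-Hochberg adjustment over all genes at 0.05 (adjusted p from 0.466 to 0.982), and over all genes the test called 0%. DESeq2 also called 0 of the 32 (smallest adjusted p 0.506), while it called 1.93% of the genes it tested, and limma-voom called 0. At an unadjusted p under 0.05 there were 0 of 32 in edgeR (Nuf2 came nearest), against 10.7% of all genes. All tdT+GFP+ libraries lay above all tdT-GFP+ libraries for 4 of the 32 (12.5%), against 7.23% of all genes, and below them for 0, against 8.6%. A missed threshold does not show equality, so the intervals are given. The 95% interval of the fold change lay inside 1.5-fold in either direction (0.58 on the log2 scale) for 31 of the 32 genes (96.9%), and for 54.5% of all genes. The exception was Bub1, with an upper bound of 0.59. Interval width depends on abundance as well as on the spread between libraries, and the median SE was 0.11 for the mitosis genes and 0.15 for all genes.

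**Figure D3:**
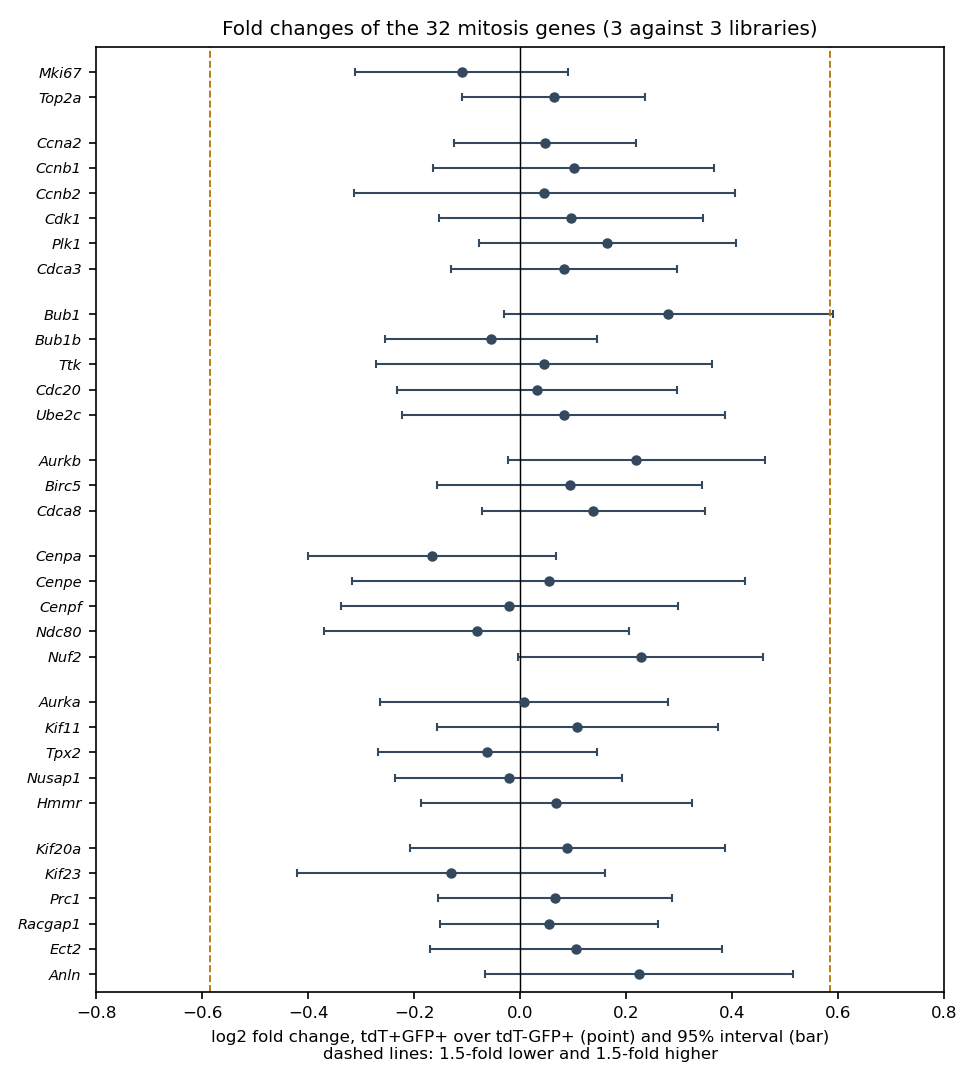
Log2 fold change of each mitosis gene (point, tdT+GFP+ over tdT-GFP+) with its 95% interval from edgeR (bar, 3 against 3 libraries), in the order of roles used in the text. All 32 intervals cross 0, and 31 stay between the dashed lines at 1.5-fold lower and higher.

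The 2 genes of chromosome structure lay on either side of 0. Gene coordinates are those of GRCm38 here and in the paragraphs that follow. Mki67 (ENSMUSG00000031004.8, chromosome 7, 135689784 to 135716361, minus strand), which encodes the proliferation marker Ki-67 that coats mitotic chromosomes, had 145, 145 and 144 CPM in tdT+GFP+ kidneys 1, 2 and 3 and 162, 140.1 and 166 CPM in tdT-GFP+ kidneys 1, 2 and 3. The tdT+GFP+ libraries lay close together, and of the tdT-GFP+ libraries those of kidneys 1 and 3 were above them and that of kidney 2 below. Its log2 fold change was -0.11 (SE 0.084, interval -0.31 to 0.091, edgeR adjusted p = 0.604). Top2a (ENSMUSG00000020914.17, chromosome 11, 98992943 to 99024189, minus strand), the topoisomerase that untangles sister chromatids, had 99.6, 91.7 and 102 against 97.9, 92.00 and 90.9 CPM. All 6 values fell within a narrow overlapping range, and the log2 fold change was 0.064 (interval -0.11 to 0.24).

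The engine of mitotic entry showed small positive values in 6 of 6 genes, none past the threshold, with a median of 0.090. By kidney number, 0 of the 6 were higher in tdT+GFP+ cells in all 3 kidneys. Their mean log2 deviation from the 6-library mean was 0.019, -0.036 and 0.15 in tdT+GFP+ kidneys 1, 2 and 3. In tdT-GFP+ kidneys 1, 2 and 3 it was -0.012, 0.010 and -0.13, so the lean came mostly from kidney 3. Cdk1 (ENSMUSG00000019942.13, chromosome 10, 69335146 to 69352938, minus strand), the mitotic kinase itself, had 26.7, 24.6 and 28.3 against 22.98, 27.8 and 23.7 CPM. The tdT-GFP+ library of kidney 2 lay between the upper tdT+GFP+ libraries, so the groups overlapped (log2 fold change 0.097, interval -0.15 to 0.35, edgeR adjusted p = 0.707). Its S and G2 partner Ccna2 (ENSMUSG00000027715.9, chromosome 3, 36564865 to 36572150, minus strand), the cyclin A2 gene, had 37.6, 35.7 and 37.9 against 37.9, 35.4 and 34.3 CPM and the smallest SE of the 32 genes, 0.072, around a log2 fold change of 0.048. The mitotic cyclin genes Ccnb1 and Ccnb2 had values of 0.10 and 0.046. Ccnb2 stood at 18.2, 17.7 and 24.9 CPM in tdT+GFP+ cells, where kidney 3 was far above the others, and at 18.4, 21.1 and 19.4 CPM in tdT-GFP+ cells. Plk1 (ENSMUSG00000030867.7, chromosome 7, 122159439 to 122169873, plus strand), the polo-like kinase that acts from centrosome maturation to cytokinesis, had 21.4, 22.8 and 25.2 against 22.2, 20.9 and 18.8 CPM. Its groups overlapped by the tdT-GFP+ library of kidney 1 (log2 fold change 0.16, SE 0.10, edgeR adjusted p = 0.545). Cdca3, an adaptor that promotes mitotic entry, had 0.082 (interval -0.13 to 0.30).

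Among spindle checkpoint and anaphase genes, Bub1 had the largest fold change of the 32 with all libraries, and the others lay near 0. Bub1 (ENSMUSG00000027379.13, chromosome 2, 127801122 to 127831865, minus strand), a checkpoint kinase that also marks centromeric chromatin, had 12.1, 11.6 and 11.9 CPM in tdT+GFP+ and 11.2, 8.37 and 9.68 CPM in tdT-GFP+ libraries. The 3 tdT+GFP+ values lay together above all tdT-GFP+ values, which scattered more (11.8 ± 0.226 against 9.75 ± 1.41 CPM, SD, n = 3). Its log2 fold change of 0.28 (SE 0.13, interval -0.031 to 0.59) did not pass the threshold (edgeR adjusted p = 0.484). It was 0.41 without the tdT-GFP+ library of kidney 1 and 0.17 without that of kidney 2. Its relative Bub1b (ENSMUSG00000040084.9, chromosome 2, 118598211 to 118641591, plus strand), the gene of BubR1, which inhibits Cdc20, went the other way with 29.4, 26.04 and 30.3 against 29.6, 30.3 and 29.1 CPM. Only the tdT+GFP+ library of kidney 2 was set apart there, on the low side (-0.055, interval -0.25 to 0.15). The checkpoint kinase gene Ttk had 0.045. Cdc20 and Ube2c, which encode the activator and the ubiquitin-conjugating enzyme of the anaphase-promoting complex, had 0.032 and 0.083. Both were highest in the tdT+GFP+ library of kidney 3, at 29.1 and 23.0 CPM.

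The chromosomal passenger complex, which corrects faulty attachments and then moves to the central spindle, had positive values in 3 of 3 genes (median 0.14). Aurkb (ENSMUSG00000020897.12, chromosome 11, 69045647 to 69051664, plus strand), its kinase, had 19.1, 17.2 and 16.5 CPM in tdT+GFP+ and 14.7, 16.4 and 14.2 CPM in tdT-GFP+ libraries. The groups did not overlap, though the tdT-GFP+ library of kidney 2 came close to the lowest tdT+GFP+ library. Aurkb had a log2 fold change of 0.22 (SE 0.10, interval -0.023 to 0.46, edgeR adjusted p = 0.483). Cdca8, the borealin gene, had 14.4, 14.2 and 15.2 against 13.5, 13.8 and 12.5 CPM, also without overlap, and a log2 fold change of 0.14 (edgeR adjusted p = 0.553). Birc5, the survivin gene, had 0.094 with overlapping groups.

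Centromere and kinetochore genes were split, with 2 positive and 3 negative values. Nuf2 (ENSMUSG00000026683.14, chromosome 1, 169497934 to 169531464, minus strand), a subunit of the Ndc80 complex that grips microtubules, had 15.96, 15.5 and 17.4 against 14.98, 13.00 and 13.7 CPM. All tdT+GFP+ libraries lay above the tdT-GFP+ libraries, with a log2 fold change of 0.23 (SE 0.097, interval -0.0041 to 0.46), which did not pass the threshold (edgeR adjusted p = 0.466). Its direct partner Ndc80 had -0.082 (interval -0.37 to 0.21). Cenpa (ENSMUSG00000029177.9, chromosome 5, 30666777 to 30674830, plus strand), the histone H3 variant of centromeres, had 15.2, 14.9 and 16.7 against 18.99, 16.3 and 17.02 CPM and a log2 fold change of -0.17 (SE 0.098, edgeR adjusted p = 0.533), the most negative of the 32 with all libraries. Without the tdT-GFP+ library of kidney 1 it was -0.085, and Kif23 was then more negative at -0.094. Its groups overlapped, since the tdT+GFP+ library of kidney 3 lay above the tdT-GFP+ library of kidney 2. Cenpf (ENSMUSG00000026605.14, chromosome 1, 189640606 to 189688086, minus strand), a large kinetochore protein of late G2, had 32.8, 31.9 and 40.4 against 40.1, 30.98 and 35.5 CPM. Each sort held a library near 40 CPM, from kidney 3 and kidney 1, and the log2 fold change was -0.020. The kinetochore motor gene Cenpe had 0.054 and the widest SE, 0.16, with the tdT-GFP+ library of kidney 2 at 19.1 CPM and the other 5 from 23.8 to 28.7 CPM.

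Spindle assembly genes had 3 positive and 2 negative values, from -0.061 to 0.11. Tpx2 (ENSMUSG00000027469.16, chromosome 2, 152847964 to 152895321, plus strand), which activates the kinase Aurora A on spindle microtubules, had 38.2, 35.9 and 43.3 against 41.4, 41.1 and 39.8 CPM. The tdT-GFP+ values lay inside the range of the tdT+GFP+ values (-0.061, interval -0.27 to 0.15). Aurka, the Aurora A gene, had 0.0077. Kif11 (ENSMUSG00000012443.4, chromosome 19, 37376403 to 37421859, plus strand), the motor that pushes spindle poles apart, had 29.5, 24.5 and 24.96 against 26.4, 22.1 and 24.7 CPM, with tdT+GFP+ kidney 1 highest (0.11, interval -0.16 to 0.37, edgeR adjusted p = 0.695). Without that library the value of Kif11 was 0.019, and without tdT-GFP+ kidney 2 it was 0.034. Nusap1, a microtubule-bundling protein gene, had -0.021, and Hmmr, a spindle pole protein gene also known as a hyaluronan receptor, had 0.069.

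Of the 6 central spindle and cytokinesis genes, 5 had positive values. Anln (ENSMUSG00000036777.8, chromosome 9, 22332012 to 22389188, minus strand), the anillin scaffold of the contractile ring, had 43.97, 43.4 and 46.2 CPM in tdT+GFP+ and 44.01, 31.8 and 38.4 CPM in tdT-GFP+ libraries. The tdT-GFP+ library of kidney 2 was far below the other 5, and that of kidney 1 lay among the tdT+GFP+ libraries (log2 fold change 0.23, SE 0.12, interval -0.065 to 0.52, edgeR adjusted p = 0.509). Without that kidney 2 library the value was 0.10, and without that of kidney 1 it was 0.36. Prc1 (ENSMUSG00000038943.16, chromosome 7, 80294450 to 80316259, plus strand), which bundles the microtubules of the midzone, had 42.3, 41.3 and 47.1 against 45.4, 38.3 and 41.01 CPM, with overlapping groups (0.066, interval -0.16 to 0.29). The centralspindlin genes Kif23 and Racgap1 encode partners in a single complex. Kif23 (ENSMUSG00000032254.10, chromosome 9, 61915905 to 61946774, minus strand) had 20.3, 17.9 and 23.5 against 23.1, 20.6 and 23.8 CPM and a value of -0.13 (interval -0.42 to 0.16), and Racgap1 had 0.055. Ect2, the exchange factor that activates RhoA at the cell equator, had 0.11. Kif20a, the motor that carries the passenger complex to the midzone, and whose exons overlap those of Cdc23 on the other strand for 29.3% of their length, had 0.089, with the tdT+GFP+ library of kidney 3 highest at 41.0 CPM.

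Single libraries moved these small fold changes. On leaving out a library or a kidney, the log2 fold change ran from -0.19 to -0.058 for Mki67, 0.010 to 0.11 for Top2a, 0.018 to 0.23 for Cdk1, 0.039 to 0.29 for Plk1, 0.15 to 0.29 for Aurkb, 0.17 to 0.32 for Nuf2, -0.16 to -0.0045 for Tpx2 and -0.23 to -0.042 for Kif23. None of these 8 genes changed sign, but 14 of the 32 did in some alternative fit, as listed in the last section.

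The labels give both sorts the same kidney numbers, and by these numbers the positive values gathered in kidney 3. The libraries did not deviate together by number. Across genes the correlation of their deviations from the sort's mean was -0.304 for the libraries of kidney 3 and -0.578 for those of kidney 2, against 0.448 and 0.444 between libraries numbered 2 and 3, so the differences by kidney rest on the labels alone. Between the libraries of kidney 1 the median log2 difference of the 32 genes was -0.0060, with 14 positive and 18 negative. It was 0.027 in kidney 2 (17 positive) and 0.19 in kidney 3 (28 positive), while the medians over all genes were 0.010, -0.011 and -0.0053. No mitosis gene differed by more than 1.5-fold within any kidney, whereas 2392, 3960 and 3663 of 15401 genes did in kidneys 1, 2 and 3. These differences are between single libraries. The wider set includes genes of low counts, while every mitosis gene had 148 or more in each library, so the 2 are not matched for abundance. Without both libraries of kidney 3 the median was 0.0083 (18 positive, 14 negative), and without both of kidney 1 it was 0.098. Leaving out single libraries gave medians from 0.034 (without tdT+GFP+ kidney 3) to 0.10 (without tdT-GFP+ kidney 1). The tdT+GFP+ library of kidney 3 was the highest of all 6 for 17 of the 32 genes, and of the tdT+GFP+ libraries for 21. The tdT+GFP+ library of kidney 2 was the lowest of its sort for 25.

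The tdT+GFP+ library of kidney 3 stood at the other end for genes of DNA replication, the step before mitosis. Of 30 replication genes it was the lowest of its sort for 27. Its summed CPM of these genes was 662, against 825 and 795 in tdT+GFP+ kidneys 1 and 2 and 690, 732 and 752 in tdT-GFP+ kidneys 1, 2 and 3. The ratio of the mitosis sum to the replication sum was 1.46 there and 1.37 in the tdT-GFP+ library of kidney 1, and between 1.10 and 1.19 in the other 4. The 2 libraries with a high ratio also had the lowest replication sums, 662 and 690 CPM. The 64 further mitosis genes described last did not share the high level of tdT+GFP+ kidney 3. That library was the highest of its sort for 21 of them and the lowest for 30. Their sums were 1077, 1021 and 1026 CPM in tdT+GFP+ and 1038, 995 and 985 CPM in tdT-GFP+ kidneys 1, 2 and 3. Their ratio to the replication genes was not taken, so a high ratio is not shown to be particular to the 32 genes. The groups did not separate by the ratio of the 32 genes to the replication genes, with 1.23 ± 0.206 against 1.25 ± 0.108 (SD, n = 3). The 2 libraries with a high ratio also had a low macrophage marker sum, 445 CPM in tdT+GFP+ kidney 3 and 577 CPM in tdT-GFP+ kidney 1. The tdT-GFP+ library of kidney 2, at 321 CPM, was lower still without a high ratio. Whether macrophage content takes part in the ratio was not tested. In edgeR 0 of the 30 replication genes passed the threshold, 1 had an unadjusted p under 0.05 (Rrm2, a ribonucleotide reductase subunit, log2 fold change 0.41, adjusted p = 0.421), and DESeq2 called 0. Their log2 fold changes were positive for 22 and negative for 8, with a median of 0.049. The lean to positive values was thus not particular to the mitosis genes.

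**Figure D4:**
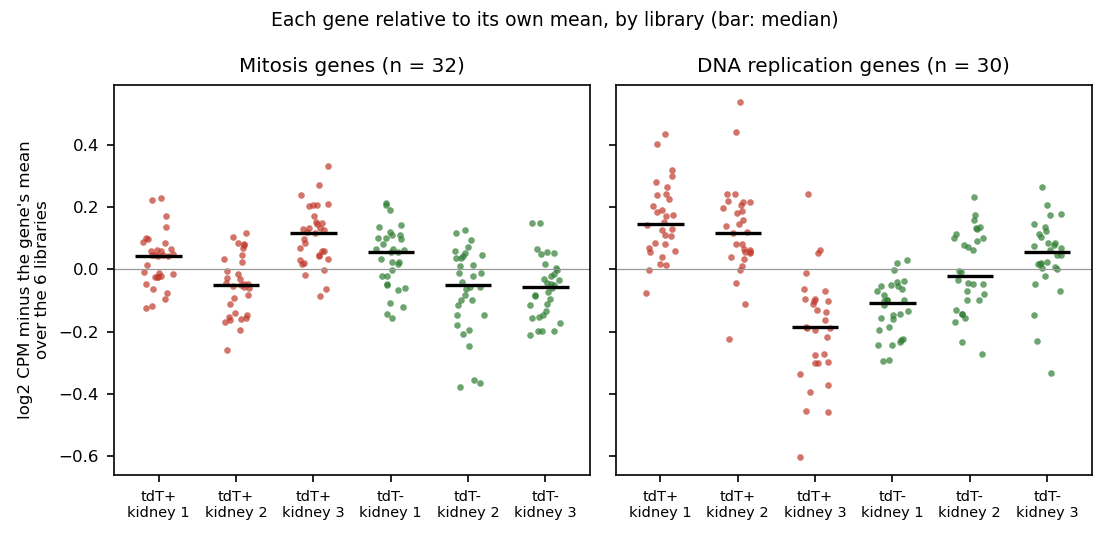
Log2 CPM of each gene minus its mean over the 6 libraries, for the 32 mitosis genes and the 30 DNA replication genes, with a bar at the median of each library. The tdT+GFP+ library of kidney 3 is the highest for 17 mitosis genes and the lowest of its sort for 27 replication genes.

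Within the tdT-GFP+ sort the scatter of the mitosis genes went with transcript length. In the library of kidney 2, genes with long transcripts such as Cenpe, Cenpf, Mki67 and Anln lay below the mean of the sort and short ones such as Ccnb2 and Cdc20 above it. The rank correlation (Spearman's rho) of this deviation with the longest annotated transcript was -0.637 over the 32 genes. It was 0.477 and 0.483 in the tdT-GFP+ libraries of kidneys 1 and 3, which share the mean with it, and 0.155, 0.122 and -0.179 in tdT+GFP+ kidneys 1, 2 and 3. Over 15453 genes with a length, rho was -0.220 for the tdT-GFP+ library of kidney 2 and 0.197 and 0.034 for those of kidneys 1 and 3. The trend was not particular to the 32 genes. In tdT-GFP+ kidneys 1, 2 and 3 rho was 0.449, -0.533 and 0.22 over the 64 further mitosis genes. Over the 30 replication genes it was 0.228, -0.437 and 0.266. In these wider lists length correlations were also seen in the tdT+GFP+ sort. There, in kidneys 1, 2 and 3, rho was 0.19, 0.21 and -0.30 over the 64 genes and 0.12, 0.36 and -0.28 over the replication genes. Over all genes it was 0.012, 0.12 and -0.13 in the same libraries. These correlations are across genes that share libraries and are given as a description. The log2 fold change itself had a rho of -0.085 with length over the 32 genes. Without the tdT-GFP+ library of kidney 2, Cenpe turned from 0.054 to -0.11, and the median of the 32 genes was 0.035.

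**Figure D5:**
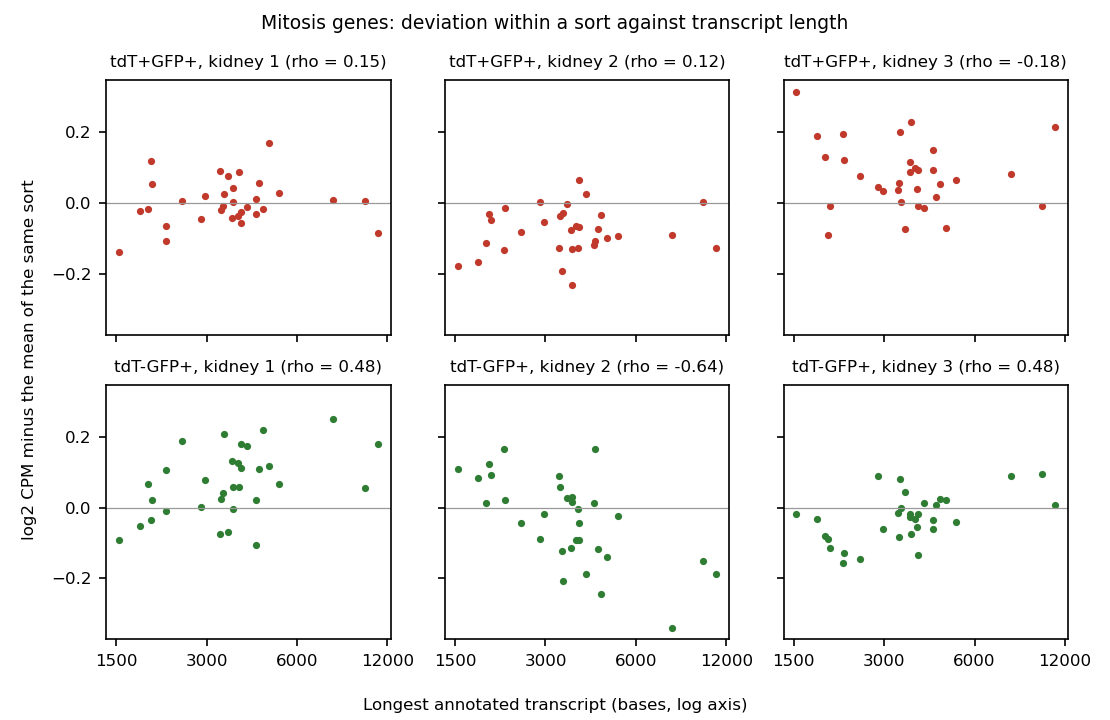
Deviation of each mitosis gene from the mean log2 CPM of its own sort against the length of its longest annotated transcript (log axis), a panel for each library. Points fall with length in the tdT-GFP+ library of kidney 2 (rho -0.64) and rise in the tdT-GFP+ libraries of kidneys 1 and 3.

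A further 64 mitosis genes outside the 32, covering mitotic transcription factors, Cdk1 regulators, condensins and further kinetochore and spindle genes, likewise held no called gene. In edgeR 0 of 64 passed the threshold in either direction, 0 had an unadjusted p under 0.05, and DESeq2 called 0. Their median log2 fold change was 0.054, with 47 positive and 17 negative values. Foxm1, the forkhead factor that drives G2 and mitosis genes, had 37.2, 37.1 and 40.9 CPM in tdT+GFP+ and 39.2, 38.1 and 36.2 CPM in tdT-GFP+ libraries, a log2 fold change of 0.022 (interval -0.16 to 0.20). Mybl2, the B-MYB gene, had 7.35, 6.19 and 5.29 against 6.06, 4.86 and 5.38 CPM and a wide interval of -0.22 to 0.64 around 0.21. The smallest p-values belonged to Ccnf, the cyclin F gene (0.29, SE 0.13), the condensin gene Ncapg (0.29, SE 0.13), the kinetochore gene Zwint (0.18, SE 0.083) and Pttg1. Pttg1, the securin gene that guards sister chromatid cohesion, had 9.70, 10.7 and 14.2 against 12.9, 17.1 and 15.2 CPM and a log2 fold change of -0.39 (SE 0.18). The edgeR adjusted p of these 4 was between 0.471 and 0.477.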

How the data were processed

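Poly(A) RNA of 6 libraries, made with a strand-specific kit, was analysed. The values are RSEM expected counts for each gene as the authors deposited them, all whole numbers. The submitters' processing notes list STAR 2.6.1, RSEM 1.2.28 and DESeq2 1.26.0, and name mm10 and GRCh38 with no stated use. The annotation and any use of strand in counting are not given in the sources used here. Exons of 9 members overlap those of another gene, so their reads may be shared: Kif20a (29.3% of its exonic length), Ube2c, Ccna2, Prc1, Plk1, Cdca8, Nusap1, Cdc20 and Top2a. The 92 spike-in entries, all 0, were left out.

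Genes passing filterByExpr were tested in edgeR 4.0.16 (R 4.3.3) after TMM scaling, by the robust quasi-likelihood fit on sort alone, with Benjamini-Hochberg adjustment over 15462 genes. The SE is the coefficient over the square root of F. Coordinates are those of GENCODE M21 (GRCm38), matched by gene identifier. Alternatives were other scalings and filters, DESeq2 1.42.0, limma-voom 3.58.1, the kidney as a block, and leaving out libraries or kidneys. The procedure was also run on simulated counts, drawn independently for each gene and library with a dispersion estimated from these data. Such counts hold no shift shared by the genes of a library, and no result here rests on them. The labels name kidneys 1, 2 and 3 as the source in both sorts, and the pairing rests on these labels. Across genes, the correlation of paired deviations from their sort's mean was 0.039, -0.578 and -0.304 in kidneys 1, 2 and 3. No label says that the kidneys came from separate mice, and p-values measure only the spread between these libraries.

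The members and lists were chosen with earlier results of these data known. All members are named. By rule, values in every library are given for Mki67, Top2a and Cdk1, for the member of each role with the highest mean and that with the smallest p, and for the 3 largest and 3 smallest fold changes. Ccnb2, Cdca8 and the single-library values of Cdc20, Ube2c, Cenpe and Kif20a were added after they were seen. Of the further mitosis genes, the rule names Foxm1, Mybl2 and the 4 with the smallest p. Promoters are printed for the 4 members with the highest mean CPM and both elements.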

Additional observations from a re-analysis of the deposited data

How the results depend on the processing

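Of 576 refits of single mitosis genes under the alternatives, 546 kept the direction and 30, in 14 genes, did not. No refit passed the threshold (smallest adjusted p 0.165), and values ran from -0.24 to 0.41. The count of mitosis, further mitosis and replication genes called was 0 under every alternative run, the replicate block (kidney) in edgeR and DESeq2 included. Over all genes DESeq2 called 281 (17 higher, 264 lower) and, with the replicate block, 278 (41 higher, 237 lower), against 0 in edgeR; the cause was not tested. The median of the 32 genes ran from 0.0083 to 0.10 on leaving out libraries or kidneys and was 0.070 with the replicate block in edgeR, which changed no call. The count of intervals inside 1.5-fold, an alternative added after seeing the data, was 22 to 32 of 32 on leaving out libraries, lowest without kidney 1. Aurka turned to -0.00079 with upper-quartile factors and to -0.0032 in limma-voom. On leaving out libraries or kidneys, the values of the genes that changed sign ran from -0.099 to 0.069 for Aurka, -0.14 to 0.14 for Cenpf, -0.11 to 0.016 for Bub1b, -0.14 to 0.18 for Ccnb2, -0.087 to 0.15 for Cdc20, -0.096 to 0.23 for Ube2c, -0.079 to 0.037 for Nusap1, -0.069 to 0.20 for Kif20a, -0.0062 to 0.092 for Ttk, -0.11 to 0.20 for Cenpe, -0.0091 to 0.13 for Racgap1, -0.0019 to 0.22 for Ect2, -0.0088 to 0.22 for Ccnb1 and -0.0049 to 0.17 for Prc1. The cause of these changes of sign was not tested. Counts of 148 or more in every library back each value, and only 3 libraries a sort limit the intervals further.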
